A study of Mus musculus with 19 samples.

Results

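The 10 genes described here encode the NADPH oxidases and dual oxidases of the mouse colon with their partner subunits and 1 peroxide-removing enzyme: Nox1, Noxo1, Noxa1, Cyba, Duox2, Duoxa2, Duox1, Cybb, Nox4 and Gpx2. They were chosen by name, with earlier results of these data known, and all 10 were found among the 32694 genes of the deposited expression table. All 10 passed the filter on low values that 18445 genes passed (at least 10 normalized counts in at least 5 libraries).

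NADPH oxidases move electrons from NADPH across a membrane to oxygen and so make superoxide or hydrogen peroxide. In the colon epithelium Nox1 works with the organizer Noxo1, the activator Noxa1 and the membrane partner p22phox, encoded by Cyba, while Duox2 makes hydrogen peroxide at the luminal surface once its maturation factor Duoxa2 has carried it out of the endoplasmic reticulum. Cybb encodes gp91phox, the oxidase of phagocytes, Nox4 is an oxidase that needs no cytosolic activators, and Gpx2 is the gut glutathione peroxidase, which removes peroxide inside epithelial cells.

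Poly-A RNA of 19 samples from 12-week-old mice was sequenced as single-end reads of 75 bases, 1 sample per mouse. Replicates are numbered within each group in the order of deposit, which pairs no samples. The wild-type group was colon tissue of 5 mice, 3 female and 2 male. The Apc tumour group was single colon tumours of 7 mice, 3 female and 4 male, in which Villin-Cre, a recombinase expressed in the intestinal epithelium, had deleted 1 allele of Apc. The Apc/Tgif tumour group was single colon tumours of 7 mice, again 3 female and 4 male, in which Villin-Cre had deleted 1 allele of Apc together with every allele of Tgif1 and of Tgif2, which encode transcriptional repressors. Both tumour groups thus carry the Apc deletion, and cells without Villin-Cre activity in a tumour keep their Tgif genes. The wild-type samples are whole colon tissue rather than isolated epithelium, so their cell mixture is not that of a tumour.

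The libraries summed to between 34417808 and 44732717 normalized counts each. Tgif1 fell from 3815 ± 803 normalized counts in Apc tumours (SD, n = 7) to 354 ± 137 in Apc/Tgif tumours (n = 7), 11.1-fold, while the total for Tgif2 rose from 642 ± 92.1 to 2657 ± 352. The gene total does not show which exons those Tgif2 reads cover. Apc had 5771 ± 1339, 6334 ± 1066 and 7272 ± 1186 normalized counts in wild-type colon, Apc tumours and Apc/Tgif tumours, with no call in any comparison. The labelled sex of every mouse matched the sex-linked transcripts: Xist ran from 19659 to 39233 in the 9 females and from 4.27 to 79.95 in the 10 males, and Ddx3y from 3.33 to 20.7 in females and from 1069 to 2748 in males. All 12 epithelial markers were detected in every group, with a summed level of 483453 to 607362 normalized counts in wild-type colon, 310170 to 558253 in Apc tumours and 366815 to 459366 in Apc/Tgif tumours. The 10 smooth muscle markers all fell in both tumour groups, as did the 9 tested B cell markers.

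The promoters of 5 of the genes are shown because the results below turn on them: Duox2 and Duoxa2 are transcribed away from each other from starts 673 bases apart, Nox1 and Cybb are the oxidases whose levels differed between the tumour genotypes (Nox1 within each sex), and Cyba had the largest increase among the 10 genes. Each is the 250 bases before the RefSeq transcript start on GRCm38.p6, written 5′ to 3′ on the gene's own strand, with matches to TGTCA or its reverse complement TGACA, the core sequence that Tgif proteins bind, in capitals.
Duox2, chr2:122298228-122298477, minus strand: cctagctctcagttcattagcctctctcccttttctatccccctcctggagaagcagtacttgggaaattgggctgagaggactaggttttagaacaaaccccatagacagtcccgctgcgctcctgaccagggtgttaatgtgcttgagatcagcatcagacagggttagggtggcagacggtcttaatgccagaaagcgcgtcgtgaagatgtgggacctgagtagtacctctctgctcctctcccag
Duoxa2, chr2:122298650-122298899, plus strand: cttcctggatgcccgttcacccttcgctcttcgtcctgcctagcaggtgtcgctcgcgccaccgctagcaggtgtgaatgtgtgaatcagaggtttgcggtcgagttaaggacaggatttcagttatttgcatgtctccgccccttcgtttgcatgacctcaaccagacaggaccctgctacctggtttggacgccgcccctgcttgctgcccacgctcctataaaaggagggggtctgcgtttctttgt
Nox1, chrX:134111855-134112104, minus strand: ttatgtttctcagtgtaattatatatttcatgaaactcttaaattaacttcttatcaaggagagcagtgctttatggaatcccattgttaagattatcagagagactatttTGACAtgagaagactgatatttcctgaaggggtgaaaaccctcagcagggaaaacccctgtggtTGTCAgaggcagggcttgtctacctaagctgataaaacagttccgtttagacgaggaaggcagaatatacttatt
Cybb, chrX:9469325-9469574, minus strand: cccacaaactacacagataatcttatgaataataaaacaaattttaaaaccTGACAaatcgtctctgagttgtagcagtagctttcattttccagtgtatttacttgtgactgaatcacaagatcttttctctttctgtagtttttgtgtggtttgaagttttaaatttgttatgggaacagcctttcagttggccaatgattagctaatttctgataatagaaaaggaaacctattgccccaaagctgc
Cyba, chr8:122432941-122433190, minus strand: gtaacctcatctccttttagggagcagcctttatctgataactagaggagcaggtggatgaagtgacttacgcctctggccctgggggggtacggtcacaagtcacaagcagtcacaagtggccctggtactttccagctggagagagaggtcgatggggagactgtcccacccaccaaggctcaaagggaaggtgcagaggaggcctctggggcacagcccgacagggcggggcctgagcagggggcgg
Nox1 held 2 matches, with first bases at -139 and -75 from the start, Cybb held 1 at -199, and the other 8 genes of the family held none in this window. Of 32851 promoters of the same length, 40.0% held at least 1 match. 5 other motifs were searched on both strands. TGANTCA, an AP-1 site, was found at -168 in Duoxa2 and at -139 in Cybb, against 6.75% of all promoters. GAGGAA, a PU.1 core, was found at -23 in Nox1 and at -146 in Gpx2, against 23.3%, and TTCNNNGAA, a STAT motif, at -222 in Nox4, against 7.02%. None of the 10 promoters held CTTTGAA or CTTTGAT (Tcf/Lef, 7.48% of all promoters) or TGACNNNGC (antioxidant response, 10.2%).

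The levels of the genes differ widely. Per kilobase of the longest coding transcript, Gpx2 was the most abundant in every group, at 14896 ± 3425 normalized counts per kilobase in the wild type (SD, n = 5), followed by Cyba at 2432 ± 1056. Next came Noxo1 at 1324 ± 235, then Duoxa2 (878 ± 621), Noxa1 (827 ± 90.0), Nox1 (821 ± 221) and Duox2 (748 ± 223). The ranges of mean ± SD of the 4 genes from Duoxa2 to Duox2 overlapped, and so did those of Cyba, Noxo1 and Duoxa2. These ranges alone do not resolve the order within each of these sets, and they leave out that the genes share the same libraries. Within each wild-type library, Cyba per kilobase was above both Noxo1 and Duoxa2. Cybb (184 ± 43.2), Nox4 (29.2 ± 6.79) and Duox1 (17.4 ± 14.7) were the lowest, and the ranges of the last pair overlapped. In Apc/Tgif tumours the order began with Gpx2 (31580 ± 19075, n = 7), Cyba (8449 ± 2564) and Duoxa2 (1905 ± 436) and ended with Nox4 (25.9 ± 6.82) and Duox1 (2.69 ± 1.12).

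In Apc tumours against wild-type colon, 3 of the 10 genes rose and none fell, at a Benjamini-Hochberg adjusted p below 0.05 over all 18445 genes (limma). Over all genes, 23.9% rose and 25.2% fell in that comparison. In Apc/Tgif tumours against the same 5 wild-type libraries, 4 rose and 1 fell, against 24.8% and 25.5% of all genes. Between the tumour groups, 1 of the 10 was higher in Apc/Tgif tumours and none was lower, against 7.88% and 8.76% of all genes. The median size of the log2 difference, regardless of direction, was 0.51 for the 10 genes and 0.51 for all genes in Apc tumours against wild type, 0.54 and 0.52 in Apc/Tgif tumours against wild type, and 0.19 and 0.25 between the tumour groups. The family as a whole was therefore close to the background of all genes in each comparison, and the rest of the account concerns which members moved. With library totals made equal, 6169 genes rose and 3395 fell in Apc tumours against wild type in place of 4415 and 4639, with the median of all genes at 0.19 (log2), and in Apc/Tgif tumours 5819 rose and 3823 fell in place of 4576 and 4708.

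**Figure D1:**
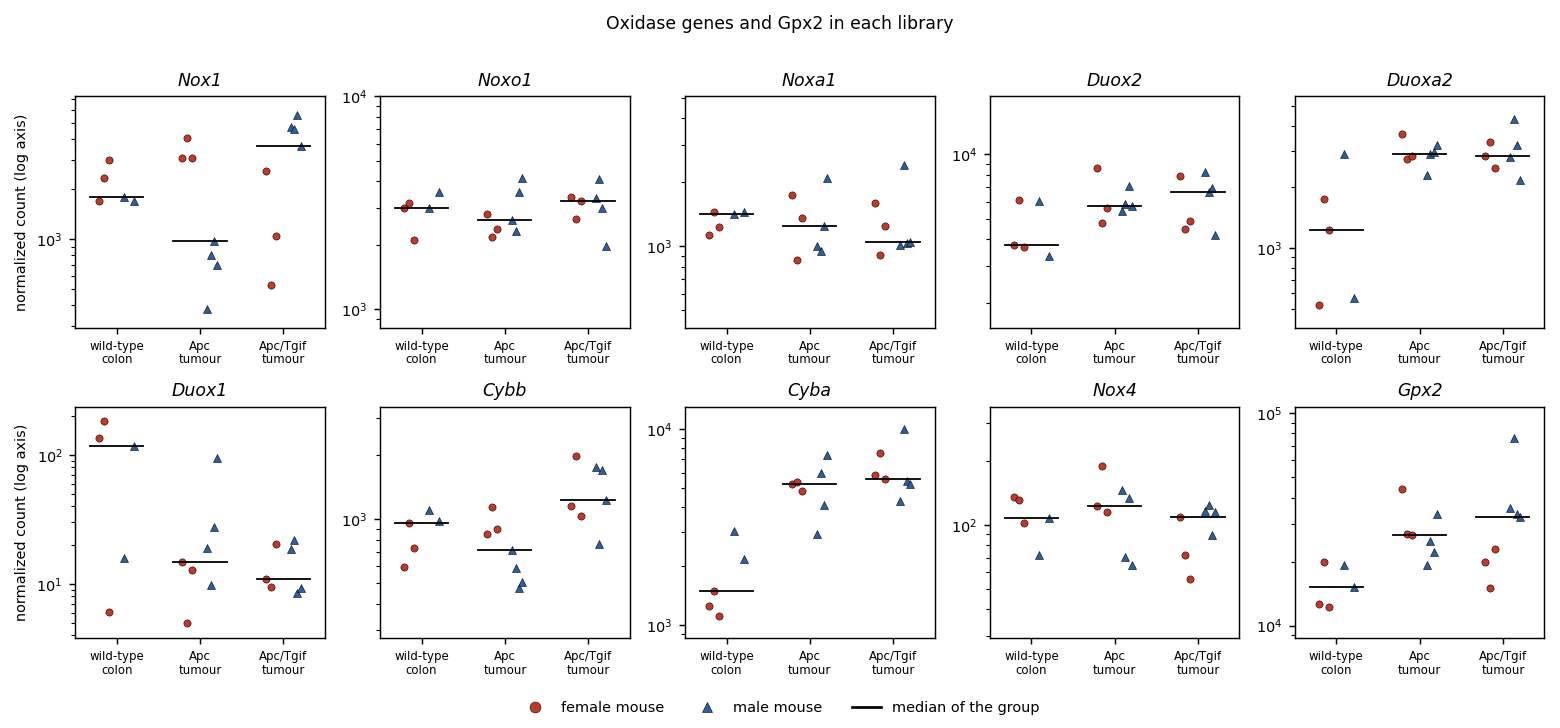
Normalized count (log axis) of each of the 10 genes in all 19 libraries, by group, with female mice as circles, male mice as triangles and the group median as a line. Cyba was at 4307 or above in every Apc/Tgif tumour and at 3016 or below in every wild-type colon, and Nox1 separated by sex within each tumour group, in opposite directions.

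**Figure D2:**
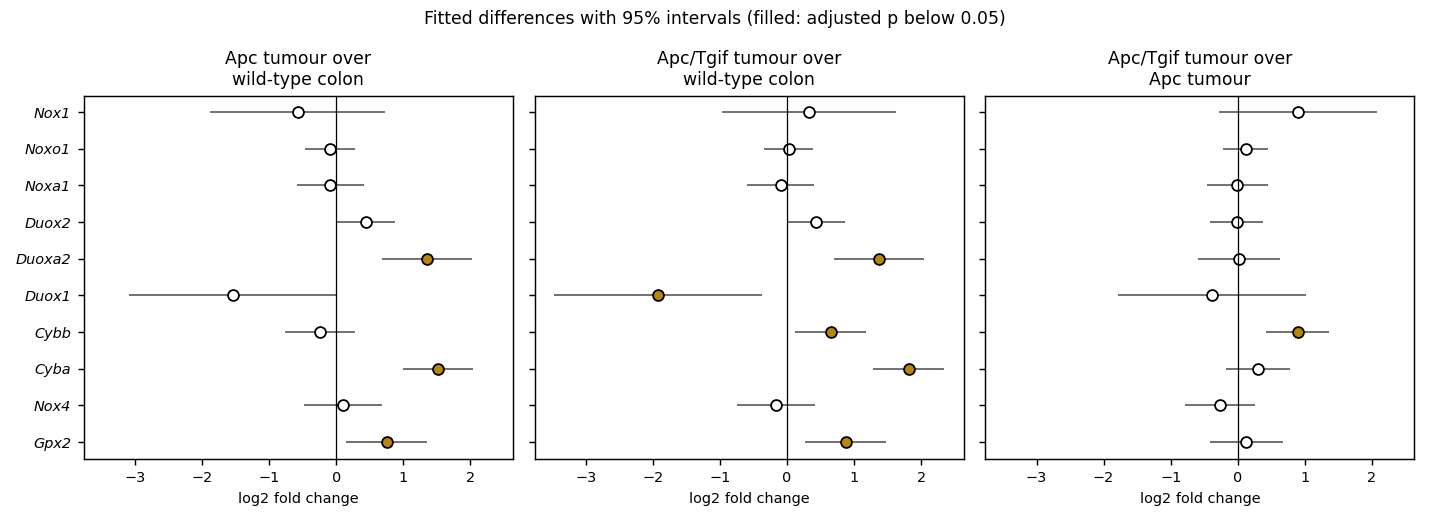
Fitted log2 fold change of each gene in the 3 comparisons (points) with 95% intervals (bars), and filled points for an adjusted p below 0.05. Cyba, Duoxa2 and Gpx2 are filled in both comparisons with wild-type colon, and Cybb alone is filled between the tumour groups.

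Cyba, which encodes the p22phox subunit that Nox1, Cybb and Nox4 all need for stability, rose most. Its 5 wild-type values were 1254, 1495 and 1118 normalized counts in females and 3016 and 2165 in males. In Apc tumours the lowest, median and highest were 2930, 5244 and 7354, and in Apc/Tgif tumours 4307, 5578 and 10014. Every Apc/Tgif tumour was above every wild-type colon, which held for 1 of the 10 genes against 14.1% of all genes, while 1 Apc tumour lay below the highest wild-type male, so that none of the 10 genes had every Apc tumour higher, against 14.0% of all genes. The difference from wild type was 1.52 (log2, SE 0.25, adjusted p = 5.97e-05, limma), or 2.86-fold, in Apc tumours and 1.81 (SE 0.25, adjusted p = 6.34e-06) or 3.52-fold in Apc/Tgif tumours. Between the tumour groups Cyba differed by 0.30 (95% interval -0.18 to 0.77, adjusted p = 0.43, limma). In the 2 wild-type and 4 Apc tumour males alone the difference was 0.91 (adjusted p = 0.10, limma). Of 9 tested neutrophil markers, 8 rose in each tumour group against wild type, while 3 fell and none rose between the tumour groups. The summed level of all 11 neutrophil markers, tested or not, ran from 4235 to 9315 normalized counts in wild-type colon, from 8732 to 18775 in Apc tumours and from 2360 to 15830 in Apc/Tgif tumours. Ly6g, which fell, contributed most of the wild-type sum. After subtraction of group means, Cyba had r 0.29 (rho 0.28) with the mean log2 level of the neutrophil markers over the 19 libraries. Without the 2 libraries farthest from the median this was 0.08. With the leukocyte markers it had r 0.46 (rho 0.48) and with the epithelial markers r 0.43 (rho 0.55). The part of these cell types in the result was not tested, and in bulk tissue more cells of a type and more RNA per cell cannot be told apart.

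Nox1, the main oxidase of the colon epithelium, had no difference between groups that passed the test when the sexes were combined, but its level depended on sex in opposite directions in the tumour groups. Wild-type females had 1701, 2320 and 3009 normalized counts and wild-type males 1803 and 1694. Apc tumours of females had 3074, 4058 and 3088, and those of males 378, 800, 974 and 692. Every female Apc tumour was thus at least 3 times as high as any male one. In Apc/Tgif tumours the order was turned: females had 2563, 532 and 1045, and males 4742, 4621, 5564 and 3614, with no overlap between the sexes in either tumour group.

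The Apc/Tgif effect relative to Apc tumours was 2.77 (log2) in males, or 6.81-fold higher, and -1.58 in females, or 3.00-fold lower. The male effect minus the female effect was 4.35 (SE 0.55, adjusted p = 0.000315 over all genes, limma), the 23rd smallest p among 18445 genes. This sex difference passed in 27 of 27 settings, with values from 3.26 to 4.95. Of all genes, 23.6% had a sex difference in this comparison, and Nox1 and Gpx2 were the 2 of 10 members that did. Fitted within each sex over all 3 groups, Nox1 was higher in Apc/Tgif tumours in males (adjusted p = 0.000202) and lower in females (adjusted p = 0.037, limma, 3 female mice per group). Against wild type the male-minus-female difference was 2.41 (SE 0.61, adjusted p = 0.039, limma) for Apc/Tgif tumours, where 3.40% of all genes passed. That call is sensitive to single libraries: it was kept with 6 of 19 libraries left out in turn, and the adjusted p was 0.15 without the male wild-type replicate 4. For Apc tumours against wild type the male-minus-female difference of Nox1 was -1.94 (SE 0.61, adjusted p = 0.24, limma), and 2 genes of 18445 passed, none of them a member. Fitted in males alone, with 2 wild-type mice, Nox1 was lower in Apc tumours by -1.38 (log2, adjusted p = 0.0067) and higher in Apc/Tgif tumours by 1.39 (adjusted p = 0.0045, limma) than in wild type. In females alone the values were 0.57 (adjusted p = 0.36) and -1.02 (adjusted p = 0.11, limma). The labels give no date or batch, so a batch that followed sex and genotype cannot be told apart from them.

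With the sexes combined the intervals of Nox1 were wide, with differences of -0.57 (95% interval -1.88 to 0.73) in Apc tumours against wild type, 0.33 (-0.97 to 1.63) in Apc/Tgif tumours against wild type and 0.90 (-0.28 to 2.08) between the tumour groups. With limma's array quality weights the last value was 1.54 with an adjusted p of 0.025, and Apc/Tgif tumours against wild type was 1.16 with an adjusted p of 0.041.

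Nox1 lies at chrX:134086421-134221956 on the minus strand (GRCm38, GENCODE M21), and its end overlaps that of Cstf2, a cleavage factor for messenger RNA ends, on the opposite strand. Of the 3377 stretches of 75 bases in Nox1 transcripts, 325 (9.62%) also occur in Cstf2 transcripts, and the sources used here do not say whether counting used strand. Cstf2 was also the gene whose level followed Nox1 most closely over the 19 libraries after subtraction of group means (Pearson r 0.95, Spearman rho 0.96), ahead of Hsp90b1 (r 0.93) and Magt1 (r 0.91), which lie outside the Nox1 locus. These values describe 19 libraries in which the sexes of each tumour group lay apart. Cstf2 ran from 4687 to 5935 normalized counts in female and from 2698 to 3067 in male Apc tumours, and from 1812 to 3476 in female and 4466 to 5218 in male Apc/Tgif tumours. Its male-minus-female difference was 1.72 (SE 0.24, adjusted p = 0.00035, limma), and that of Hsp90b1, an endoplasmic reticulum chaperone, was 1.83 (SE 0.23, adjusted p = 0.00027). In males, Cstf2 was 1.67-fold higher in Apc/Tgif than in Apc tumours, against 6.81-fold for Nox1. The part of shared reads in the Nox1 values was not tested.

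Other cells and the site of the tumour were set beside Nox1 as scores, the mean log2 level of a marker list. The macrophage and monocyte score of the Apc tumours ran from 9.88 to 10.10 in females and from 9.47 to 9.62 in males, the same order as Nox1, and that of Apc/Tgif tumours from 9.75 to 9.90 in females and from 9.92 to 10.34 in males, again in the order of Nox1. The summed level of its 14 markers, none of them at 0 in any group, ran from 28099 to 31293 normalized counts in female and from 15880 to 20952 in male Apc tumours, and from 18322 to 30189 in female and 25326 to 27556 in male Apc/Tgif tumours. After subtraction of group means Nox1 had r 0.69 (rho 0.75) with this score and r -0.57 (rho -0.54) with the epithelial score over 19 libraries. It had r -0.61 (rho -0.60) with the neutrophil score, which was -0.33 without the 2 libraries farthest from the median, and r 0.42 with each of the leukocyte and fibroblast scores. Its r with the distal colon Hox score, which follows position along the colon, was -0.02 (rho -0.03). The distal Hox score ran from 4.33 to 11.14 in Apc tumours and from 5.54 to 11.07 in Apc/Tgif tumours, so both groups held tumours with high and with low Hox levels. The part of these cell types in the Nox1 values was not tested.

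**Figure D3:**
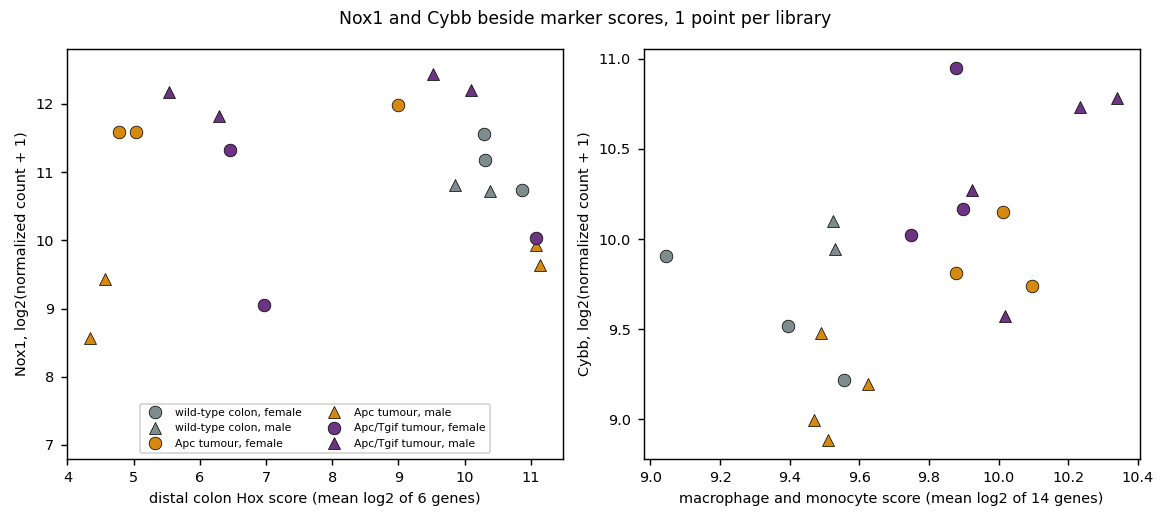
Left, log2(normalized count + 1) of Nox1 against the distal colon Hox score, and right, Cybb against the macrophage and monocyte score, 1 point per library, coloured by group and shaped by sex. Nox1 was high in some and low in other tumours with low and with high Hox scores (r -0.02 after subtraction of group means). The libraries at the very top of the Hox score (11.07 to 11.14) were tumours with low Nox1 (800 to 1045 normalized counts). Cybb had r 0.48 with the macrophage score, with male Apc tumours at the 3 lowest levels of Cybb.

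Noxo1 and Noxa1, the organizer and activator of Nox1, passed in no comparison and had no sex difference that passed. Noxo1 had 2120 to 3557 normalized counts in wild-type colon, with a median of 2988, against a lowest, median and highest of 2190, 2633 and 4136 in Apc tumours and 1977, 3237 and 4081 in Apc/Tgif tumours. Noxa1 had 1135 to 1450 in wild-type colon, with a median of 1419, against 865, 1240 and 2087 in Apc tumours and 908, 1047 and 2419 in Apc/Tgif tumours. The groups overlapped for both genes. The intervals bound the differences: for Noxo1 they reached from -0.47 to 0.27 in Apc tumours and from -0.35 to 0.39 in Apc/Tgif tumours against wild type, and for Noxa1 from -0.59 to 0.41 and from -0.60 to 0.40. Their male-minus-female differences between the tumour groups were -0.37 (SE 0.32, adjusted p = 0.44) for Noxo1 and 0.09 (SE 0.45, adjusted p = 0.91, limma) for Noxa1. With the leukocyte score subtracted, Noxo1 had a sex difference of 1.52 (adjusted p = 0.017) in Apc tumours against wild type and -1.46 (adjusted p = 0.015, limma) between the tumour groups, a setting in which 11325 and 7630 of all genes passed. Over the 19 libraries, after subtraction of group means, Noxo1 had r -0.18 with Nox1 and r 0.67 with Noxa1. Within a library the log2 ratio of Noxo1 to Nox1 ran from -0.89 to -0.13 in female and from 1.54 to 2.80 in male Apc tumours, and from 0.39 to 2.32 in female and from -0.89 to -0.18 in male Apc/Tgif tumours.

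Noxo1 overlaps Tbl3 on the opposite strand, and 52.6% of its 75-base stretches also occur in Tbl3 transcripts, so its values are less certain than those of the other genes. Tbl3, which encodes a ribosomal RNA processing factor, rose by 0.85 (log2, SE 0.14, adjusted p = 3.7e-05, limma) in Apc tumours and 0.83 in Apc/Tgif tumours against wild type, while Noxo1 did not pass. Noxa1 overlaps Entpd8 on the opposite strand, with no shared 75-base stretch.

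Duoxa2, the maturation factor of Duox2, rose in both tumour groups. Duox2 itself did not pass the test as reported, though it did in some other settings given below. Duoxa2 had 525, 1751 and 1228 normalized counts in wild-type females and 2917 and 567 in wild-type males. The lowest, median and highest were 2307, 2908 and 3644 in Apc tumours and 2178, 2849 and 4310 in Apc/Tgif tumours, so that all 14 tumours were above 4 of 5 wild-type colons and the wild-type male with 2917 lay among them. The difference was 1.36 (SE 0.32, adjusted p = 0.0017, limma), or 2.56-fold, in Apc tumours and 1.38 (SE 0.32, adjusted p = 0.0014), or 2.60-fold, in Apc/Tgif tumours, with 0.02 (95% interval -0.59 to 0.63) between them. In males alone, with 2 wild-type mice, the values were 1.14 (adjusted p = 0.11) and 1.24 (adjusted p = 0.073, limma). Duoxa2 shares 40.1% of its 75-base stretches with Duoxa1, which overlaps it on the opposite strand. Duoxa1, the maturation factor of Duox1, had 7.97 to 27.4 normalized counts in wild-type colon and 13.4 to 58.4 in tumours and rose by 0.85 (adjusted p = 0.045, limma) in Apc tumours.

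Duox2 had 3760, 6080 and 3676 normalized counts in wild-type females and 6030 and 3318 in wild-type males. Its lowest, median and highest were 4784, 5721 and 8645 in Apc tumours and 4189, 6693 and 8265 in Apc/Tgif tumours, and the groups overlapped. The differences from wild type were 0.45 (95% interval 0.01 to 0.88, adjusted p = 0.083) and 0.43 (-0.01 to 0.86, adjusted p = 0.095, limma). With library totals made equal, which raised the median of all genes in Apc tumours by 0.19, Duox2 passed at 0.65 (adjusted p = 0.012), and it passed at 0.58 (adjusted p = 0.022, limma) in Apc/Tgif tumours, where the median of all genes was 0.15. With the wild-type male replicate 4 or the wild-type female replicate 2 left out, the libraries with the highest Duox2 in that group, it passed in both comparisons (0.57 and 0.56 in Apc tumours, 0.55 and 0.55 in Apc/Tgif tumours), and in Apc/Tgif tumours also without their replicate 7 (0.51). With the epithelial score subtracted Duox2 passed at 0.82 (adjusted p = 0.0051) and 0.78 (adjusted p = 0.0067, limma), with the median of all genes at 0.36 in both. With the leukocyte score subtracted it passed in Apc tumours at 0.97 (adjusted p = 0.013, limma), with that median at 0.51. With quality weights it passed in Apc/Tgif tumours at 0.54 (adjusted p = 0.034, limma).

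The mean log2 ratio of Duoxa2 to Duox2 within a library was -1.96 ± 0.73 in the wild type (SD, n = 5), -1.05 ± 0.20 in Apc tumours (n = 7) and -1.01 ± 0.41 in Apc/Tgif tumours (n = 7). Wild-type libraries ran from -2.84 to -1.05 and overlapped both tumour groups. The difference from wild type was 0.91 in Apc tumours (exact permutation test, two-sided, p = 0.010, adjusted p = 0.048 over 24 ratio comparisons) and 0.95 in Apc/Tgif tumours (p = 0.018, adjusted p = 0.053, exact permutation test). The first call was lost with 11 of 19 libraries left out in turn, at adjusted p of up to 0.10. Over the 19 libraries, after subtraction of group means, Duoxa2 and Duox2 had r 0.61 (rho 0.56).

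Duox1, which is the main dual oxidase of airway rather than gut, was the lowest of the 10 genes per length in each group. Of its 5193 stretches of 75 bases, 234 (4.51%) also occur in Duox2 transcripts, and the part of shared reads in its values was not tested. It had 135, 183 and 6.09 normalized counts in wild-type females and 15.8 and 117 in wild-type males, so that 3 wild-type colons were above 100 and 2 below 20. The lowest, median and highest were 4.94, 14.9 and 95.2 in Apc tumours and 8.50, 10.9 and 21.9 in Apc/Tgif tumours. The fall of 1.92 (log2, SE 0.74, adjusted p = 0.037, limma) in Apc/Tgif tumours passed the test, and the value of -1.54 (adjusted p = 0.092) in Apc tumours did not. The Apc/Tgif call was lost with each of 7 libraries left out in turn, the wild-type replicates 1, 2 and 5 (adjusted p = 0.11, 0.12 and 0.11) and the Apc/Tgif replicates 1, 2, 6 and 7 (0.054, 0.056, 0.061 and 0.060, limma). It was also lost with quantile normalization (-1.67, adjusted p = 0.068) and with only the 2 groups compared (-1.83, adjusted p = 0.056, limma). In females alone it was -2.02 (adjusted p = 0.15) and in males alone -1.62 (adjusted p = 0.17, limma). With the epithelial score subtracted it was -1.57 (adjusted p = 0.061) and with the leukocyte score -1.61 (adjusted p = 0.17, limma). The Apc value passed without the wild-type replicate 3 (-2.19) or 4 (-2.11) or the Apc replicate 7 (-1.88), and with quality weights (-2.13, adjusted p = 0.015, limma).

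**Figure D4:**
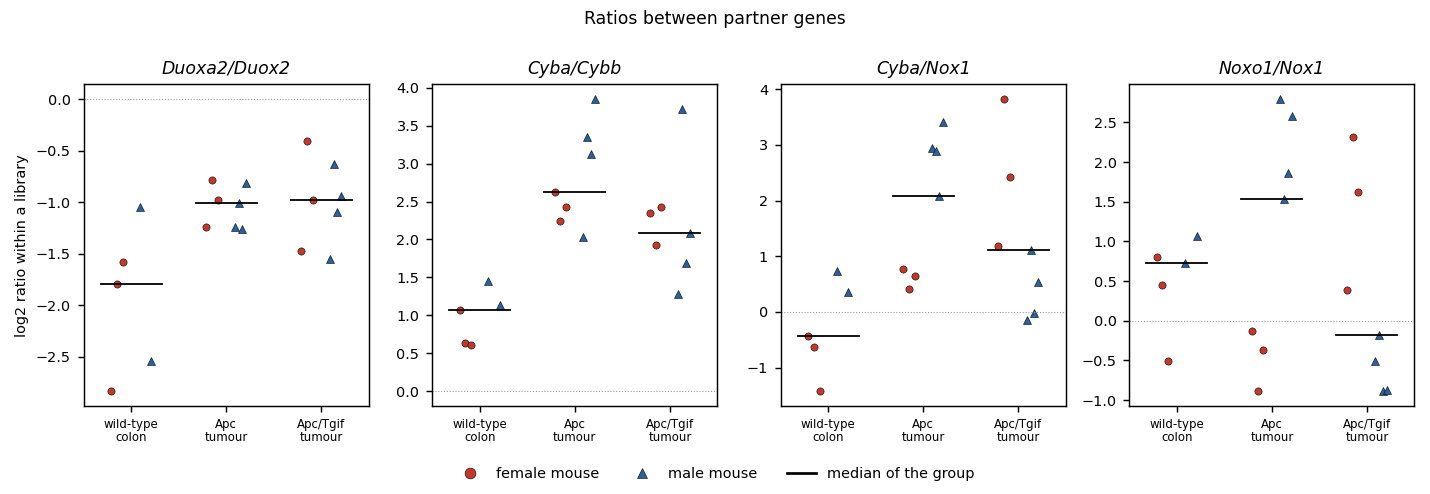
The log2 ratio of 4 pairs of partner genes within each library, by group and sex, with the group median as a line. For Duoxa2 to Duox2 the groups overlap, with -2.84 to -1.05 in the wild type, -1.26 to -0.79 in Apc and -1.55 to -0.41 in Apc/Tgif tumours. The Cyba to Cybb ratio is higher on average in the tumours, with means of 0.98 in the wild type, 2.81 in Apc and 2.21 in Apc/Tgif tumours.

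Cybb, the phagocyte oxidase also called Nox2, was the 1 member that differed between the tumour genotypes with the sexes combined. Wild-type females had 594, 959 and 732 normalized counts and wild-type males 1098 and 985. Apc tumours had 853, 1137 and 897 in females and 714, 587, 472 and 509 in males, and Apc/Tgif tumours 1148, 1976 and 1038 in females and 1763, 762, 1698 and 1236 in males. The 4 male Apc tumours were below the other groups' males, and 6 of 7 Apc/Tgif tumours were above 6 of 7 Apc tumours. The difference between the tumour groups was 0.89 (log2, SE 0.23, adjusted p = 0.010, limma), or 1.85-fold, and no member had every Apc/Tgif tumour above every Apc tumour, against 2.30% of all genes. In females alone it was 0.48 (adjusted p = 0.21) and in males 1.20, and the difference between the sexes did not pass (0.72, SE 0.39, adjusted p = 0.19, limma), though it did without the Apc/Tgif replicate 5 (0.98, adjusted p = 0.039). Against wild type Cybb rose by 0.65 (SE 0.25, adjusted p = 0.037, limma) in Apc/Tgif tumours. That call was lost without the wild-type replicate 1, 2 or 3 (0.51, 0.67 and 0.58) or the Apc/Tgif replicate 2, 4 or 6 (0.55, 0.57 and 0.58). It was also lost with quantile normalization (0.56, adjusted p = 0.073), with only the 2 groups compared (0.59, adjusted p = 0.054) and with the distal Hox covariate (0.64, adjusted p = 0.068, limma). The value in Apc tumours was -0.24 (95% interval -0.77 to 0.28, adjusted p = 0.44, limma). This Apc value was -0.88 (adjusted p = 0.047) in males alone and 0.35 (adjusted p = 0.31, limma) in females alone, and the Apc/Tgif value was 0.32 (adjusted p = 0.43) in males and 0.83 (adjusted p = 0.028) in females.

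Macrophage markers were set beside Cybb, which had r 0.48 (rho 0.49) with their score and r 0.73 (rho 0.75) with the leukocyte score after subtraction of group means. Of the 14 macrophage and monocyte markers, none at 0 in any group, 5 rose and none fell in Apc/Tgif against Apc tumours, among them Csf1r, the receptor for the macrophage growth factor, by 0.57 (adjusted p = 0.0062), and the complement genes C1qa (0.60, adjusted p = 0.0026), C1qc (0.58) and C1qb (0.62, limma). Against wild type 9 of 14 rose and 1 fell in Apc/Tgif tumours, and 4 rose and 1 fell in Apc tumours. Their summed level was 13070 to 18179 normalized counts in wild-type colon, 15880 to 31293 in Apc tumours and 18322 to 30189 in Apc/Tgif tumours. A general leukocyte score, the mean log2 level of 6 genes, was also subtracted from every gene in each library. Cybb then differed by 0.68 (adjusted p = 0.12, limma) between the tumour groups, with the median of all genes at -0.22 in place of -0.01. With the epithelial score subtracted it differed by 0.87 (adjusted p = 0.051, limma), with that median at -0.03. Both subtractions move all genes alike, so they cannot decide what part cell content has in the difference, which was not tested. B cells, which also express Cybb, were marked by 9 tested genes that fell in both tumour groups against wild type and did not pass between them. Genes with the most similar levels over the 19 libraries after subtraction of group means were March1 (r 0.92), Cd274 (r 0.91) and Runx3 (r 0.89).

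Ncf1, Ncf4 and Rac2 encode cytosolic partners of Cybb, and none of them passed between the tumour groups. Ncf1, the organizer p47phox, differed by 0.04 and Ncf4, p40phox, by 0.05, and neither gene passed in any comparison. Rac2, the leukocyte GTPase of the complex, fell by 0.69 (adjusted p = 0.035, limma) in Apc tumours against wild type, with values of -0.54 (adjusted p = 0.093) in Apc/Tgif tumours and 0.15 between the tumour groups.

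The log2 ratio of Cyba to Cybb was 0.98 ± 0.36 in the wild type (SD, n = 5), 2.81 ± 0.65 in Apc tumours and 2.21 ± 0.77 in Apc/Tgif tumours (n = 7 each). The differences from wild type were 1.82 (p = 0.0025, the smallest these groups allow, adjusted p = 0.030) and 1.23 (p = 0.0051, adjusted p = 0.040, exact permutation tests), so the shared subunit rose relative to the phagocyte oxidase in both. The ratio of Cyba to Nox1 was higher in Apc tumours than in wild type by 2.16 (p = 0.010, adjusted p = 0.048, exact permutation test), a call lost with 11 of 19 libraries left out in turn. That test has no sex term, and the ratio differed by sex. It ran from 0.41 to 0.77 in female and from 2.08 to 3.41 in male Apc tumours. In wild-type colon it ran from -1.43 to -0.44 in females and from 0.35 to 0.74 in males. The Apc call of Cyba to Cybb was lost without the wild-type replicate 1, 3 or 5 (1.85, 1.73 and 1.86, each adjusted p = 0.073), where the unadjusted p of 0.0061 is the smallest that 4 against 7 libraries allow, so the test and not the size of the difference set that loss. The Apc/Tgif call was lost without the wild-type replicate 1, 2, 3 or 5 (1.25, 1.14, 1.13 and 1.27, adjusted p of up to 0.097, exact permutation tests).

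Nox4, which makes hydrogen peroxide without cytosolic activators and is best known from stromal and kidney cells, was low and did not pass in any comparison. It had 71.9 to 135 normalized counts in wild-type colon with a median of 107, against a lowest, median and highest of 64.7, 122 and 189 in Apc tumours and 55.7, 109 and 124 in Apc/Tgif tumours. The groups overlapped, and the intervals of the differences reached from -0.48 to 0.68, from -0.75 to 0.42 and from -0.79 to 0.26 in the 3 comparisons.

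Gpx2, the enzyme that removes peroxide in gut epithelium, rose in both tumour groups. It had 12642, 20012 and 12242 normalized counts in wild-type females and 19369 and 15206 in wild-type males. Apc tumours had 44028, 26823 and 26606 in females and 19321, 24901, 22082 and 33465 in males, of which 1 lay below the highest wild-type values. Apc/Tgif tumours had 19961, 14976 and 23019.5 in females, of which 2 lay within the wild-type range, and 35715, 76434, 33345 and 32424 in males, all above it. The differences from wild type were 0.75 (SE 0.29, adjusted p = 0.037), or 1.68-fold, in Apc tumours and 0.87 (SE 0.29, adjusted p = 0.016, limma), or 1.83-fold, in Apc/Tgif tumours. In females alone they were 1.11 (adjusted p = 0.0066) and 0.38 (adjusted p = 0.26), and in males alone 0.51 (adjusted p = 0.27) and 1.27 (adjusted p = 0.011, limma). The Apc call was lost with each of 8 libraries left out in turn, the wild-type replicates 1, 3, 4 and 5 (0.71, 0.70, 0.79 and 0.68) and the Apc replicates 1, 2, 3 and 7 (0.57, 0.72, 0.72 and 0.73), and both calls were lost with the distal Hox score as a covariate (0.55, adjusted p = 0.19, and 0.73, adjusted p = 0.061, limma).

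Like Nox1, Gpx2 had a sex difference between the tumour groups, with an effect of 0.76 in males and -0.73 in females and a male-minus-female difference of 1.49 (SE 0.41, adjusted p = 0.016, limma). It passed with each library left out in turn. With the leukocyte score subtracted from every gene, this difference was 0.40 (adjusted p = 0.48, limma). In that setting 7630 of all genes passed and the median of all genes was -1.10. The lost call therefore cannot tell a part of leukocytes from the shift of all genes, and that part was not tested. Nox1 and Gpx2 had r 0.59 (rho 0.53) over the 19 libraries after subtraction of group means, and r 0.38 without the 2 libraries farthest from the median. The genes closest to Gpx2 were Ssr2, Kdelr2 and Asna1 (r 0.90, 0.90 and 0.89), and those closest to Cyba were Atp6v0b, Prkcsh and Pebp1 (each r 0.94). Gpx1, the glutathione peroxidase of all tissues, did not pass in any comparison (0.18, 0.15 and -0.03), and the ratio of Gpx2 to Gpx1 differed from wild type by 0.57 and 0.73 (adjusted p = 0.053 and 0.067, exact permutation tests).

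Of 13 other oxidase subunits and regulators, 12 passed the filter, and 4 rose (33.3%) and 3 fell (25.0%) in Apc tumours against wild type, near the 23.9% and 25.2% of all genes. Sh3pxd2b, a Noxo1-like organizer of invadopodia, rose most, from 811 ± 221 in the wild type (SD, n = 5) to 3864 ± 760 normalized counts in Apc tumours (log2 2.30, adjusted p = 7.2e-10) and 5227 ± 636 in Apc/Tgif tumours (2.75, n = 7 each), and also between the tumour groups (0.45, adjusted p = 0.029, limma). Rac3, a Rac GTPase, rose by 2.08 and 2.54 against wild type. Hvcn1, the proton channel that balances the charge moved by the phagocyte oxidase, fell by 2.01 in Apc tumours and by 1.39 in Apc/Tgif tumours, and BC017643, now called Cybc1, which encodes a chaperone of gp91phox, fell by 0.38 in Apc tumours (adjusted p = 0.013, limma). In Apc/Tgif tumours 3 rose and 1 fell against wild type (24.8% and 25.5% of all genes), and 1 rose between the tumour groups (7.88%). Hvcn1 is abundant in B cells, whose markers fell in both tumour groups; their part in its values was not tested. The list median was -0.20 and -0.10 against wild type and 0.10 between the tumour groups.

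Genes that remove peroxide and superoxide moved in both directions against wild type, as all genes did, while between the tumour groups those that passed only fell. Of 23, 7 rose (30.4%) and 6 fell (26.1%) in Apc tumours, near the background of 23.9% and 25.2%. In Apc/Tgif tumours against wild type 6 rose (26.1%) and 9 fell (39.1%), against 24.8% and 25.5% of all genes. In Apc/Tgif against Apc tumours none rose and 7 fell (30.4%), against 7.88% and 8.76%. The list medians were 0.04, -0.15 and -0.32. Prdx6, a peroxiredoxin, was the most abundant in wild-type colon at 132205 ± 16606 normalized counts (SD, n = 5) and fell to 20172 ± 7331 in Apc tumours and 8820 ± 2660 in Apc/Tgif tumours (n = 7 each), by 2.86 and by 4.0 on the log2 scale, with a further difference of -1.15 between the tumours (adjusted p = 0.000902, limma). Txn1, thioredoxin, fell by 0.98 and by 1.58, and Cat, catalase, by 0.64 and by 1.12, against wild type, and both fell between the tumour groups (-0.60 and -0.48). Srxn1, which restores oxidized peroxiredoxins, fell by 0.99 between the tumour groups (adjusted p = 0.0034, limma). Gsr, glutathione reductase, and Txnrd1, thioredoxin reductase, rose in Apc tumours by 0.56 and 0.75, and Txnrd1 fell by 0.44 between the tumour groups.

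**Figure D5:**
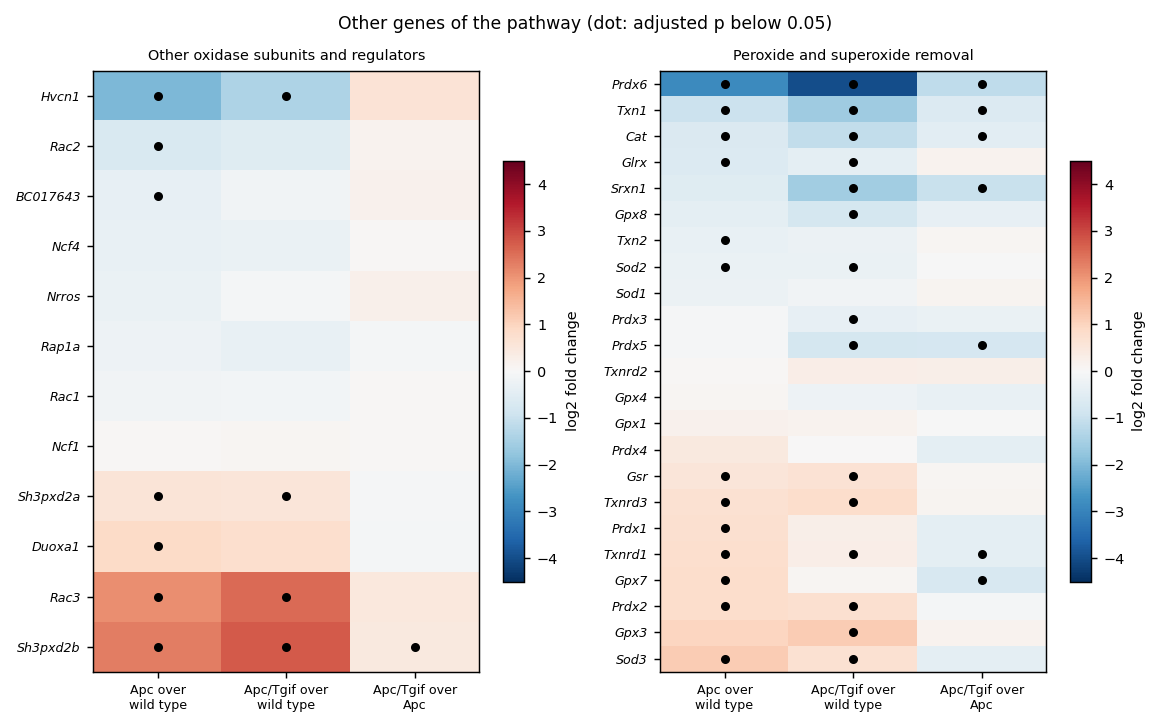
Log2 fold change in the 3 comparisons (colour) of the 12 tested other oxidase subunits and regulators, left, and the 23 genes of peroxide and superoxide removal, right, sorted by Apc tumour over wild type, with a dot for an adjusted p below 0.05. Sh3pxd2b is marked in all 3 columns on the left and Prdx6, Txn1, Cat and Txnrd1 in all 3 on the right.

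Other lists around the pathway were read the same way, as genes rising and falling in Apc tumours against wild type, in Apc/Tgif tumours against wild type and in Apc/Tgif against Apc tumours. The shares of all genes that rose and fell were 23.9% and 25.2%, 24.8% and 25.5%, and 7.88% and 8.76%, in that order, and these counts are to be read against them. Of 15 targets of Nrf2, the factor that induces antioxidant genes, 4 rose and 3 fell, 4 rose and 6 fell, and 3 rose and 4 fell, the first pair near the background, with Hmox1 rising by 2.73 and 1.95 and Gstm1 falling by 2.24 and by 2.84 against wild type. Of 11 genes that supply NADPH, 3 rose and 1 fell, 2 rose and 2 fell, and 2 rose and 1 fell; Idh1, the cytosolic isocitrate dehydrogenase, went from 6573 ± 410 normalized counts in the wild type (SD, n = 5) to 13435 ± 1383 in Apc tumours and 19767 ± 3949 in Apc/Tgif tumours (n = 7 each), rising in all 3. Of 5 peroxidases 2 passed the filter. Pxdn, a matrix peroxidase, rose by 1.46 in Apc tumours (adjusted p = 2.3e-06) and was lower by -1.45 (log2) in Apc/Tgif than in Apc tumours (adjusted p = 1.5e-05, limma), and Lpo rose by 1.36 in Apc/Tgif tumours against wild type.

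Of 10 cytokines that induce gut oxidases 6 passed the filter, and 4 rose and 1 fell, 3 rose and 1 fell, and none rose and 2 fell. Il1b rose by 4.52 and 3.36 and Tnf by 3.52 and 4.05 against wild type, while Il6 fell by 3.85 (adjusted p = 0.00024, limma) and Il18 by 0.66 between the tumour groups. Of 15 genes of the epithelial response to microbes, 8 rose and 3 fell, 9 rose and 5 fell, and none rose and 6 fell; Saa3 rose by 7.78 and 6.13 and Cxcl5 by 6.42 and 6.23 against wild type, and Retnlb fell by 3.70 between the tumour groups. Of 12 TGF-beta targets, 11 rose and none fell, 9 rose and 1 fell, and none rose and 4 fell, where the list includes the deleted Tgif1. All 17 Wnt targets rose in both tumour groups, and 6 rose and none fell between them.

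The remaining marker lists describe the cell mixture behind these values. Of 12 pan-epithelial markers 1 rose and 6 fell in Apc tumours, 1 rose and 5 fell in Apc/Tgif tumours, and none passed between the tumours. Of 14 colonocyte markers 1 rose and 11 fell, 1 rose and 13 fell, and none rose and 9 fell. Of 6 leukocyte markers none rose and 3 fell, none rose and 1 fell, and none passed between the tumours, where 3 of 9 neutrophil markers fell and none rose. Of 9 fibroblast markers 4 rose and 2 fell, 3 rose and 2 fell, and none rose and 4 fell, and of 7 endothelial markers 2 rose and 1 fell, 2 rose and none fell, and none rose and 1 fell. Of 6 distal colon Hox genes none rose and 2 fell, none rose and 1 fell, and none passed between the tumours. The part of these mixtures in the oxidase values was not tested. The subtractions given above take the same amount from every gene in a library, so they cannot decide it.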

How the data were processed

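Per the labels' protocols, poly-A RNA of 19 mouse samples was sequenced on a NextSeq 500 as single-end reads of 75 bases. The submitters' processing notes name Salmon, DESeq2 and the mouse builds GRCm38 and mm10, with versions, annotation and use of strand not given in the sources used here. What the authors deposited is 1 table of normalized counts per gene and library, treated here as a signal scaled to each library's depth. From its low values 1 count was worth 0.74 to 1.44 units, but 81.9 to 84.6% of low values were whole multiples (within 0.1 of a step), so whole counts could not be restored and a test for counts was left out.

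Values were analysed as log2(value + 1) with limma 3.58.1 (R 4.3.3, trend and robust), in 1 fit of all 19 libraries with group and sex, for 18445 genes with at least 10 in at least 5 libraries. P-values are two-sided, Benjamini-Hochberg adjusted over all genes tested, with a threshold of 0.05, and fold changes are on that log2 scale, which understates changes of low genes. A second fit, with a mean for every combination of group and sex, gave the male effect minus the female effect. Ratios of 8 partner pairs were tested by exact permutation, adjusted over 24 comparisons, and are described per library. One gene of the lists, and the ratio that holds it, is not reported here. Both tumour groups were compared with the same 5 wild-type libraries, so these comparisons are not independent. The fit was tested on simulated data, where it made somewhat more false calls than the threshold allows, most of all between the tumour groups.

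The 10 members and the 20 gene lists were chosen with earlier results of these data known. Named genes are all members, up to 4 genes of a list that passed in each comparison, by smallest p, the cytosolic partners Ncf1, Ncf4 and Rac2, Duoxa1 and Gpx1, and the 3 genes most like each member in level. Hsp90b1 is also one of those. Cstf2, Tbl3 and Entpd8, which overlap members, and BC017643 were added after the values were seen. Positions and shared stretches of 75 bases come from GENCODE M21 (GRCm38), promoters from RefSeq (GRCm38.p6, all 10 members matched). Alternatives were 2 pseudocounts, no filter, equal totals, quantile normalization, no sex term, the 2 groups alone, each sex alone, epithelial or leukocyte scores subtracted, a Hox covariate, quality weights and each library left out.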

Additional observations from a re-analysis of the deposited data

Results flagged for a closer look

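Nox1 had effects of Apc/Tgif against Apc tumours that differed by sex, with a male effect minus female effect of 4.35 (log2, adjusted p = 0.000315, limma), from a rise of 2.77 in males and a value of -1.58 in females. Against wild type the same difference for Apc/Tgif tumours was 2.41 (adjusted p = 0.039, limma), higher in males by 1.39 and lower in females by -1.02. Gpx2 had a male effect minus female effect of 1.49 between the tumour groups (adjusted p = 0.016, limma). These were flagged because the effects in the 2 sexes differ by a test of the difference itself.

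Duox1 in the male Apc tumour replicate 7 stood at 95.2 normalized counts, apart from the other 6 Apc tumours, which ran from 4.94 to 27.5. Gpx2 in the male Apc/Tgif tumour replicate 5 stood at 76434 normalized counts, apart from the other 6, which ran from 14976 to 35715. In all, 30 pairs of gene and group were examined for a library that stands apart, and 2 were found. The check used normalized counts rather than log2 values. Its rate of about 5% flagged by chance holds for normally distributed values, which such counts need not be.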

How the results depend on the processing

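The calls of Duoxa2 and Cyba in both tumour groups against wild type were kept in at least 31 of 32 settings, and that of Cybb between the tumour groups in 29. Nox1 between the tumour groups reversed from 0.90 to -1.58 (adjusted p = 0.037, limma) in females only. The sex difference of Duox2 in Apc tumours against wild type, -0.06 as reported, was 1.39 (adjusted p = 0.022, limma) with the leukocyte score subtracted. The count of members called in Apc/Tgif tumours against wild type, 5 as reported, was 3 with quantile normalization, with only the 2 groups compared, in females only, in males only and with the distal Hox covariate, and 3 to 6 with a library left out. Between the tumour groups it was 1 as reported, 2 in males only and with quality weights, and 0 with the epithelial or the leukocyte score subtracted. Genes called were 3068 between the tumour groups as reported, 1947 with the epithelial and 1048 with the leukocyte score subtracted, and 5992 in place of 9284 for Apc/Tgif tumours against wild type with the latter. Subtracting a score also shifts the median of all genes, to as much as 0.51 (log2) for group effects. For sex differences in Apc tumours against wild type the median reached 1.48 with the leukocyte score subtracted.

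Sex differences were most dependent on the setting. For Apc tumours against wild type, 2 genes passed as reported (2134 at an unadjusted p below 0.05), 6 with no filter, 14 with the Hox covariate, 0 with the epithelial and 11325 with the leukocyte score subtracted (2 members), and 2 to 40 with a library left out. For Apc/Tgif tumours against wild type, 628 passed, 21 with the epithelial and 18 with the leukocyte score subtracted, and 5 to 1801 with a library left out. The 1 member called there fell to 0 with equal totals and with either score subtracted, with 0 to 2 when a library was left out. Between the tumour groups 4352 passed, 7630 with the leukocyte score subtracted, and 2731 to 4909 with a library left out. Ratios called against wild type were 3 in Apc and 1 in Apc/Tgif tumours, and both counts were 0 in either sex alone, where no call was possible because the smallest exact p was 0.10 in females and 0.13 in males; with a library left out the first ran from 0 to 3 and the second from 0 to 2. Values that passed in neither setting and changed sign are not counted as reversed; these were 65 of 960 group effects of the members. The cause of these changes was not tested. No paired analysis was possible because the labels give no replicate numbers. Duox1, Nox4 and Duoxa1 were under 200 normalized counts in every library.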
